A study of Fukomys damarensis and Heterocephalus glaber and Cavia porcellus with 28 samples.

Results

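The genes described here encode the enzymes that carry glycolysis from triose phosphate to pyruvate and lactate: Tpi1, Pgk1, Pgam1, Pgam2, Eno1, Eno3, Pkm, Pklr, Ldha and Ldhb. They were chosen by name. Of the 13928 genes in the deposited tables of heart and liver RNA-seq, rows are named by mouse Ensembl gene identifier, and those identifiers mapped to all 10 symbols, 1 row each (for example ENSMUSG00000060600 for Eno3). All 10 passed the filter on low values in both tissues.

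The study set 2 African mole-rats, the naked mole-rat (Heterocephalus glaber) and the Damaraland mole-rat (Fukomys damarensis), against guinea pig (Cavia porcellus) and mouse (Mus musculus). There were 3 hearts and 4 livers of naked mole-rat, 5 and 5 of Damaraland mole-rat, 3 and 3 of guinea pig, and 3 and 2 of mouse. The 28 libraries came from 18 animals, of which 10 gave both tissues. The animals carried no treatment or engineered allele in their labels. Naked mole-rats were 13 to 17 months old and Damaraland mole-rats 36 to 48 months, whereas guinea pigs were 2.3 and mice 2 months old. The animals were male except for 1 Damaraland female whose liver was sequenced (liver replicate 4). Heart and liver labels of 1 Damaraland animal differ in age, 48 against 36 months. Species, age and the transcript set used to assign reads to genes cannot be told apart in this design.

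Triosephosphate isomerase (Tpi1) interconverts the triose phosphates and phosphoglycerate kinase (Pgk1) makes the first ATP of the payoff phase. Each later step has at least a pair of isoforms that differ by tissue. Phosphoglycerate mutase has a widely expressed gene, Pgam1, and a muscle gene, Pgam2; enolase has Eno1 and the muscle gene Eno3; pyruvate kinase has Pkm and the liver and red cell gene Pklr. Lactate dehydrogenase is a tetramer of subunits from Ldha, abundant in glycolytic muscle and liver, and Ldhb, abundant in heart. Tetramers rich in the Ldhb subunit are known to favour lactate use, and those rich in the Ldha subunit lactate production.

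Values are on the log2-like scale of the authors' variance-stabilising transform, with a separate table for each tissue, in which 0 reads correspond to 5.36 in heart and 4.29 in liver. The transform was inverted to reads per library, which came out whole in 100% of values, and to scaled reads, in which each library's reads are put on a common depth by its size factor. Libraries held 4089633 to 26985779 reads in heart, with naked mole-rat heart replicate 3 the shallowest, and 11220505 to 21467939 in liver. The labelled tissues carried their markers: 5 of 5 cardiomyocyte genes summed to 411280 to 1526780 scaled reads in heart and 469 to 2882 in liver. The 5 hepatocyte genes in the tables, of 6 listed, summed to 878949 to 2896650 in liver and 349 to 31138 in heart. Mitochondrially encoded genes took at most 0.0279% of reads in Damaraland libraries and 2.88% to 26.9% in the other species. The part of these differences in any result below was not tested. In bulk tissue, fewer cells of a type and less RNA per cell cannot be told apart.

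The first question was whether both mole-rats differed from both outgroups in these genes. No member was called in the same direction in both mole-rats against both outgroups, which among 10 genes is near the low share over all genes. Many members differed between single species, as did many of all genes. A gene was called different where limma gave a Benjamini-Hochberg adjusted p under 0.05 over all genes tested and a difference of at least 1. Over all 4 contrasts of a mole-rat with an outgroup, 0 of 10 genes were called in 1 direction in heart, against 4.68% of all genes tested, and 0 of 10 in liver, against 6.29%. By limma at an unadjusted p under 0.05 and without the size threshold, 1 gene of the 10 passed in heart, Pklr, and 0 in liver; voom on the recovered reads called 1 in heart and 0 in liver, and leaving out Damaraland heart replicate 3 also gave 1 in heart, Pklr. Over the 6 species pairs, 26 of 60 gene-by-pair contrasts were called in heart, against 32.9% over all genes, and 29 of 60 in liver, against 37.6%. In heart, 5 of 10 genes were called between the 2 mole-rats (29.4% of all genes). Naked mole-rat differed from guinea pig in 4 (33%) and from mouse in 4 (38.2%), Damaraland mole-rat in 4 (29.7%) and 6 (34.9%), and the outgroups from each other in 3 (32.1%). In liver, 7 were called between the mole-rats (34.2% of all genes), 4 (37.8%) and 4 (41.2%) for naked mole-rat, 4 (36.2%) and 5 (39.2%) for Damaraland mole-rat, and 5 (37.2%) between guinea pig and mouse.

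On the average of the mole-rat means against the average of the outgroup means, 4 of 10 genes were called in heart, where 23.4% of all genes were (10.8% higher and 12.6% lower). Pgam1 (difference 1.04, SE 0.14) and Pklr (1.10, SE 0.18) were higher, and Tpi1 (-3.78, SE 0.24) and Pgam2 (-1.43, SE 0.20) were lower in mole-rats, with limma adjusted p from 8.88e-10 to 4.32e-05. Without naked mole-rat heart replicate 1 the count fell to 2, because Pgam1 (0.99) and Pklr (0.96) then lay under the size threshold; Pgam1 also did so without guinea pig heart replicate 2 (0.99). In liver 3 of 10 were called, against 28.1% of all genes (15.1% higher and 13% lower): Eno3 (2.25, SE 0.29) and Pklr (1.14, SE 0.16) higher and Tpi1 (-3.76, SE 0.10) lower, with limma adjusted p from 1.21e-14 to 5.23e-06. The median difference over the 10 genes was 0.04 in heart, beside -0.01 over all genes, and 0.14 in liver, beside 0.02. Pklr in heart was the single member for which every mole-rat library lay above every outgroup library, an order held in either direction by 15.2% of all heart genes. In liver no member separated the groups in that way, against 16.1% of genes.

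**Figure D1:**
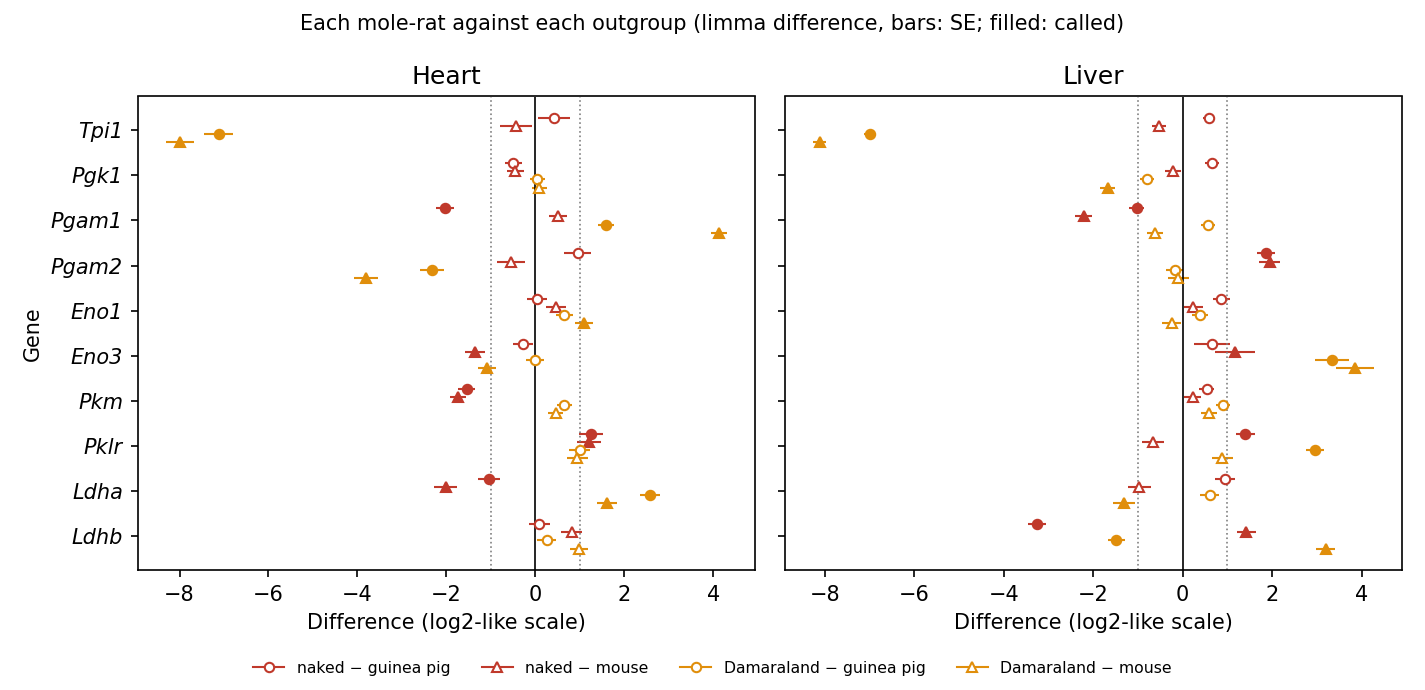
Difference of each mole-rat from each outgroup (x axis, log2-like scale) for the 10 genes (y axis) in heart (left) and liver (right), as limma estimates with SE bars; filled symbols were called, dotted lines mark a difference of 1. Red and orange symbols often lie on opposite sides of 0, as for heart Ldha, where naked mole-rat is 1.04 below guinea pig and Damaraland mole-rat 2.58 above it.

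Tpi1 was listed at 0 reads in all 5 Damaraland hearts and all 5 Damaraland livers. In heart the deposited values were 13.50, 13.64 and 11.58 in naked mole-rat, 12.62, 12.20 and 12.63 in guinea pig and 13.25, 13.42 and 13.40 in mouse. The shallow naked mole-rat replicate 3, at 11.58, widened the range of its species across those of guinea pig and mouse; without it naked mole-rat was called higher than guinea pig (1.09). In liver the values were 11.72, 11.89, 12.09 and 11.81 in naked mole-rat, 11.29, 11.15 and 11.42 in guinea pig and 12.27 and 12.53 in mouse.

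Against a floor of 3 reads in each Damaraland library, Tpi1 was at least 3075-fold higher in naked mole-rat heart and at least 1280-fold higher in naked mole-rat liver. The average contrast for Tpi1 in both tissues rests on these libraries: the naked mole-rat alone differed by 0.42 (SE 0.36) from guinea pig and -0.45 (SE 0.36) from mouse in heart, with limma adjusted p of 0.321 and 0.285. In liver naked mole-rat Tpi1 lay 0.59 (SE 0.14) above guinea pig, and its difference from mouse was -0.53 (SE 0.16), both under the size threshold. The guinea pig difference from mouse in liver was -1.12 (SE 0.16), and its call ended without mouse liver replicate 2 (-0.98) and under quantile normalisation (-0.96). The SE and limma p-values of Tpi1 use 1 spread shared by all 4 species. The Damaraland libraries, all at 0 reads, add no spread to it, so these SE and p-values may be too small. The enzyme is needed by every cell that runs glycolysis, and few other genes had this pattern. In heart 2 genes, Tpi1 and Stk24, were listed at 0 in every Damaraland library while averaging at least 1000 scaled reads in each other species, and in liver 1, Tpi1. Naked mole-rat had 2 such genes in each tissue, Ndufa4 and Nucks1 in heart and Ndufa4 and Rpl8 in liver. The 0 is given only as a listed value. How Damaraland transcripts were joined under mouse identifiers is not given in the sources used here, so absence of Tpi1 RNA cannot be read from it. Without Tpi1, 2 of the other 9 genes were called higher and 1 lower in heart, and 2 higher and 0 lower in liver.

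Genes whose values tracked Tpi1 most closely over the 14 heart libraries were Epn3 (Pearson r = 0.993), Svil (0.991) and Ccng2 (0.989), and over the 14 liver libraries Stk24 (0.998), mt-Cytb (0.991) and mt-Atp6 (0.990). These correlations are descriptions over libraries that share their species and their table, and mt-Cytb and mt-Atp6 belong to the mitochondrial genes that are near 0 in Damaraland libraries.

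Pgk1 was called in 0 of 6 species pairs in heart (3 had a limma adjusted p under 0.05, with differences of at most 0.54), where its deposited values ran from 12.19 to 13.11 over all 14 libraries. The species means were 12.33 ± 0.16 (SD, n = 3) in naked mole-rat, 12.87 ± 0.22 (n = 5) in Damaraland mole-rat, 12.83 ± 0.30 (n = 3) in guinea pig and 12.78 ± 0.09 (n = 3) in mouse. In liver the Damaraland values were 10.92, 10.41, 10.71, 10.61 and 10.26. Each lay below the 4 naked mole-rat livers (11.92 to 12.16), the 3 guinea pig livers (11.32 to 11.46) and the 2 mouse livers (12.24 and 12.27). Damaraland liver Pgk1 differed by -1.68 (SE 0.17) from mouse and by -1.45 (SE 0.14) from naked mole-rat, limma adjusted p 2.57e-07 and 7.69e-08. Its difference from guinea pig, -0.80 (SE 0.15), did not reach the size threshold.

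**Figure D2:**
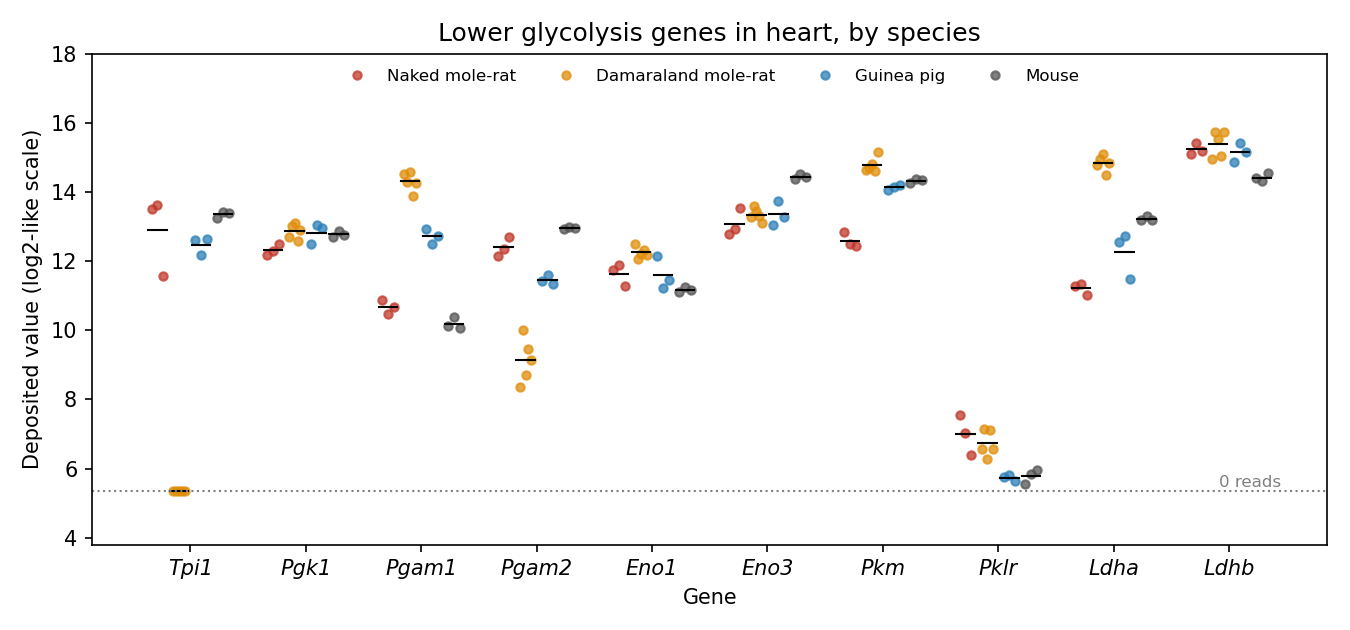
Deposited value (y axis, log2-like scale) of the 10 genes (x axis) in each heart library; points are libraries coloured by species, short lines are species means and the dotted line is the value of 0 reads. Pgam1 and Pgam2 trade places between Damaraland mole-rat and mouse, and Ldha spans 11.04 in naked mole-rat to 15.10 in Damaraland mole-rat while Ldhb spans 14.32 to 15.73.

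Hearts differed widely in the phosphoglycerate mutase pair. Pgam1 values were 14.53, 14.29, 14.59, 13.89 and 14.25 in Damaraland mole-rat, 12.95, 12.50 and 12.73 in guinea pig, 10.89, 10.48 and 10.69 in naked mole-rat and 10.13, 10.37 and 10.06 in mouse. No library of one species overlapped another's. The share of all genes in which the 4 species stood apart in this way was not counted, for this gene or those below. The Damaraland mean of 20535 scaled reads was 13.0 times that of naked mole-rat, 3.05 times that of guinea pig and 18.8 times that of mouse. Damaraland Pgam1 was called higher than in each other species (differences 3.62, 1.59 and 4.12 from naked mole-rat, guinea pig and mouse; limma adjusted p 5.02e-11, 1.08e-06 and 7.77e-12).

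Pgam2, the muscle isoform, ran the other way in heart. Its values were 8.37, 10.02, 8.71, 9.47 and 9.15 in Damaraland mole-rat, 11.44, 11.62 and 11.33 in guinea pig, 12.17, 12.34 and 12.72 in naked mole-rat and 12.93, 12.99 and 12.96 in mouse. Again the species did not overlap, and the Damaraland libraries were the lowest. Mouse hearts held 14.8 times and naked mole-rat hearts 10.2 times the scaled reads of Damaraland hearts, and Pgam2 was called lower in Damaraland mole-rat than in each other species (limma adjusted p 2.79e-08 for naked mole-rat, 1.43e-06 for guinea pig and 3.17e-09 for mouse). Naked mole-rat and mouse were neighbours in this order and differed by 0.55 (SE 0.30), limma adjusted p = 0.122.

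As a share of the reads of both genes, Pgam2 made up 2.69% ± 1.57 (SD, n = 5) in Damaraland heart, 29.2% ± 5.01 (n = 3) in guinea pig, 77.1% ± 5.11 (n = 3) in naked mole-rat and 87.9% ± 1.19 (n = 3) in mouse. These are shares of reads, not of transcripts, because transcript lengths in each species are not given in the sources used here. The reads of the pair together were also highest in Damaraland heart, at 21069 scaled reads on average, beside 9486 in guinea pig, 8967 in mouse and 7000 in naked mole-rat. Within-library differences of Pgam1 and Pgam2 differed among species by an exact permutation test of the species labels (p = 1.78e-06, adjusted over the 8 pair tests 7.14e-06), which tests for any difference among the 4 species and has no direction.

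In liver Pgam1 took nearly all reads of the pair except in naked mole-rat. Naked mole-rat Pgam1 was lowest, at 9.27, 9.53, 9.74 and 9.24, beside 10.64 to 11.18 in Damaraland mole-rat, 10.29 to 10.59 in guinea pig and 11.64 to 11.69 in mouse. Naked mole-rat Pgam2 was highest, at 7.12, 6.73, 6.99 and 7.29, beside 4.77 to 5.33, 4.89 to 5.60 and 5.02 to 5.14. Both genes separated naked mole-rat from the other species without overlap. Pgam1 was called lower (differences -1.60, -1.03 and -2.22) and Pgam2 higher (2.04, 1.87 and 1.95) in naked mole-rat than in Damaraland mole-rat, guinea pig and mouse. The limma adjusted p values lay between 2.52e-08 and 4.55e-05. The call of Pgam1 against guinea pig ended without guinea pig liver replicate 1 (-0.98) or 3 (-0.99) and without naked mole-rat liver replicate 1 (-0.97) or 4 (-0.96). Naked mole-rat liver Pgam2 was still scarce, at 95.9 scaled reads on average.

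Pgam2 held 12.9% ± 4.0 (SD, n = 4) of the pair in naked mole-rat liver and at most 1.41% in any library of the other species. The exact permutation test gave p = 5.27e-05, adjusted 8.44e-05. Skeletal muscle markers, 6 of 7 listed genes being in the table, summed to 11.9 to 36.8 scaled reads in naked mole-rat liver and 5.07 to 27.1 in the other livers. Bile duct markers, 3 of 4 in the table, were higher in naked mole-rat liver, at 2136 to 2973 scaled reads beside 834 to 2047 in guinea pig, 66.2 to 396 in Damaraland mole-rat and 26.8 to 47.2 in mouse, and their part in the Pgam1 and Pgam2 differences was not tested. In heart the skeletal muscle markers summed to 308 to 663 in naked mole-rat, 38.0 to 119 in Damaraland mole-rat, 9.46 to 18.4 in guinea pig and 15.2 to 31.9 in mouse. The part of skeletal muscle RNA in the Pgam2 values of either tissue was not tested.

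Enolase showed a smaller shift in heart. Eno3, the muscle isoform, was at 14.38, 14.52 and 14.43 in mouse, above 12.78 to 13.55 in naked mole-rat, 13.11 to 13.59 in Damaraland mole-rat and 13.05 to 13.74 in guinea pig, and those 3 species overlapped one another. Mouse Eno3 was called higher than each (by 1.36, 1.10 and 1.08, limma adjusted p 5.13e-05, 0.000138 and 0.000536). All 3 calls ended under quantile normalisation, where mouse Eno3 lay above the others by 0.96, 0.80 and 0.64, and the call against guinea pig also ended without guinea pig heart replicate 1 (0.93). Eno1 was called in 1 of 6 pairs, higher by 1.09 (SE 0.20) in Damaraland mole-rat (12.07 to 12.51) than in mouse (11.10 to 11.26), limma adjusted p = 0.000139.

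Eno3 took 90.9% ± 0.0969 (SD, n = 3) of enolase pair reads in mouse heart, 76.4% ± 10.2 (n = 3) in guinea pig, 72.7% ± 9.01 (n = 3) in naked mole-rat and 68.1% ± 4.42 (n = 5) in Damaraland mole-rat. The shares of the last 3 species overlapped, and mouse stood above all of them. Of the 8 pair tests this gave the largest p (exact permutation, p = 0.00454, adjusted 0.00454).

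Liver Eno3 separated Damaraland mole-rat from the rest. Its values were 9.46, 11.34, 9.69, 10.75 and 9.26 in Damaraland mole-rat, 7.47, 7.56, 7.48 and 7.18 in naked mole-rat, 7.31, 6.13 and 6.86 in guinea pig and 6.42 and 6.08 in mouse. The Damaraland livers were above all others but also spread more widely, from 576 to 2546 scaled reads. Their mean of 1252 scaled reads was 9.24 times that of naked mole-rat, 15.7 times that of guinea pig and 29.5 times that of mouse (differences 2.68, 3.33 and 3.85, limma adjusted p 2.9e-06, 6.46e-07 and 6.63e-07). Naked mole-rat Eno3 was 1.18 (SE 0.45) above mouse, limma adjusted p = 0.0296, a call that ended without naked mole-rat liver replicate 1 or 2 or mouse liver replicate 1 or 2 (limma adjusted p 0.0502 to 0.17), and also with quantile normalisation, with voom and with no filter on low values. Eno1, the main liver enolase, was called in 0 of 6 pairs (3 had a limma adjusted p under 0.05), with values of 12.18 to 13.43 over all 14 libraries.

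Eno3 held 14.6% ± 7.56 (SD, n = 5) of enolase pair reads in Damaraland liver, from 8.51% to 26.3%, beside at most 2.31% in any other liver (exact permutation p = 0.000126, adjusted 0.000169). Cardiomyocyte markers summed to 1429 to 2882 scaled reads in Damaraland liver, 762 to 1404 in naked mole-rat, 469 to 2848 in guinea pig and 857 to 1232 in mouse, ranges that overlap between Damaraland mole-rat and guinea pig. Skeletal muscle markers were at 5.31 to 17.5 in Damaraland liver. Their part in the Eno3 difference was not tested.

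**Figure D3:**
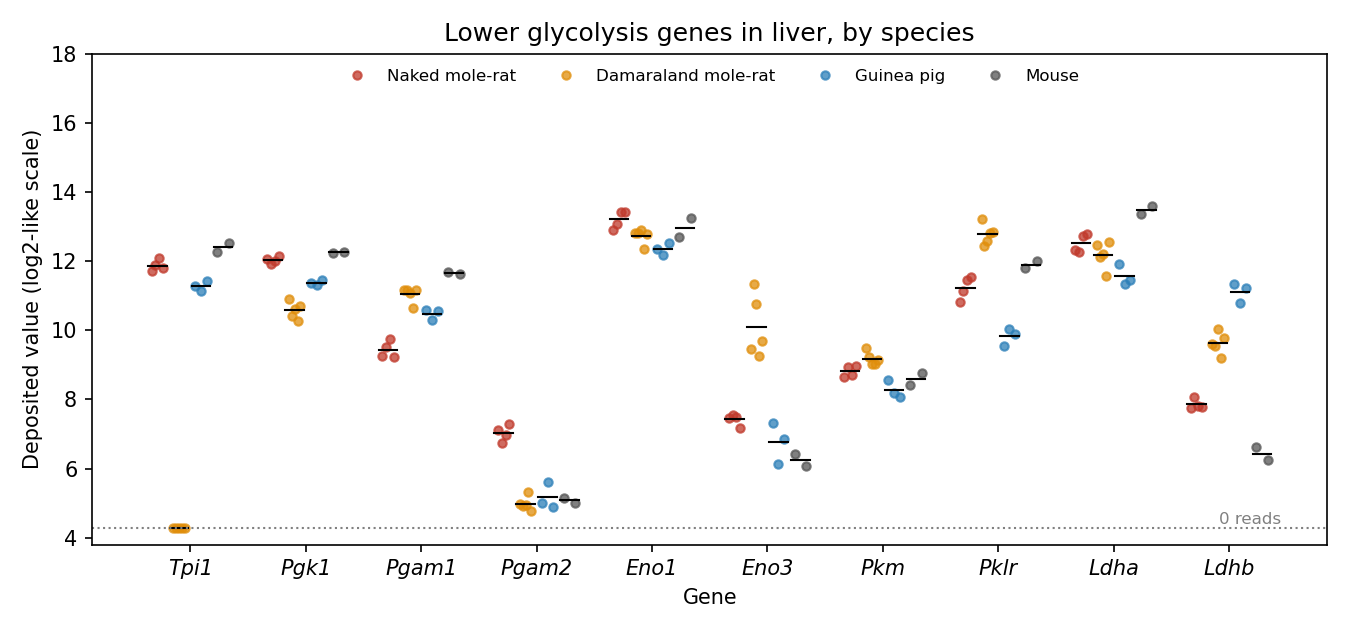
Deposited value (y axis, log2-like scale) of the 10 genes (x axis) in each liver library; points are libraries coloured by species, short lines are species means and the dotted line is the value of 0 reads. For Ldhb the 4 species do not overlap, from guinea pig (10.78 to 11.33) to mouse (6.25 and 6.61), and Eno3 is highest in the 5 Damaraland livers.

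Pyruvate kinase differed in heart through Pkm, the isoform gene of muscle and most other tissues. Naked mole-rat values were 12.84, 12.50 and 12.44, below 14.65, 14.71, 14.82, 14.61 and 15.15 in Damaraland mole-rat, 14.06, 14.15 and 14.21 in guinea pig and 14.27, 14.37 and 14.36 in mouse. No other heart library came within 1 unit of the naked mole-rat values. Pkm scaled reads were 4.64 times higher in Damaraland mole-rat, 2.93 times in guinea pig and 3.35 times in mouse than in naked mole-rat, and naked mole-rat was called lower than each (-2.19, -1.55 and -1.74, limma adjusted p 8.71e-09, 2.13e-06 and 4.34e-07).

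Pklr, the isoform of liver and red cells, was scarce in every heart. Its deposited values were 7.54, 7.02 and 6.40 in naked mole-rat, 6.56, 7.14, 6.27, 7.12 and 6.55 in Damaraland mole-rat, 5.77, 5.80 and 5.65 in guinea pig and 5.55, 5.85 and 5.96 in mouse. The mole-rat libraries were all above the outgroup libraries, yet their means were 65.3 and 43.2 scaled reads beside 2.9 and 4.2. Naked mole-rat Pklr was called higher than guinea pig (1.25, SE 0.27) and mouse (1.20, SE 0.27), limma adjusted p 0.000672 and 0.000817. The Damaraland differences of 0.99 and 0.94 fell just short of the size threshold, and with voom on the recovered reads, which does not compress low counts, they were 3.55 and 3.50. With libraries centred on their median they were 1.03 and 1.01, past the threshold. Both naked mole-rat calls ended without naked mole-rat heart replicate 1, at 0.97 and 0.92. The 3 naked mole-rat hearts held 134, 93 and 6 Pklr reads, the last in the shallow replicate 3. At a common depth these were 113, 60.3 and 22.2 scaled reads. Hepatocyte markers in these hearts summed to 31138, 10955 and 29289 scaled reads, above the 349 to 6902 of the other hearts. Damaraland (3522 to 6902) and guinea pig hearts (3844 to 5520) overlapped in this sum, most of which in guinea pig was Apoa1 (mean 3357 scaled reads, beside 1736 in Damaraland hearts). The means of the other 4 markers, for example Alb at 2790 and 949 scaled reads, were higher in Damaraland than in guinea pig hearts. Alas2, the 1 erythroid marker of 6 in the table, was at 31.8 to 161 scaled reads in mole-rat hearts, 46.0 to 1035 in guinea pig hearts and 298 to 1342 in mouse hearts. The part of hepatocyte or red cell RNA in the heart Pklr values was not tested. Pklr made up at most 1.54% of the pair in any heart, and the within-library difference of the pair differed among species (exact permutation p = 0.00182, adjusted 0.00208).

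In liver, where Pklr is the main isoform, the order ran from Damaraland mole-rat (13.23, 12.44, 12.85, 12.58 and 12.82) through mouse (11.79 and 12.01) and naked mole-rat (10.81, 11.13, 11.46 and 11.53) to guinea pig (9.55, 10.04 and 9.90). The 4 species did not overlap. Guinea pig Pklr was called lower than in each other species, and Damaraland liver held 8.10 times its scaled reads (difference 2.95, SE 0.20, limma adjusted p = 1.11e-09). The neighbours Damaraland mole-rat and mouse, and mouse and naked mole-rat, differed by 0.89 (SE 0.23) and 0.67 (SE 0.24), which did not reach the size threshold. Hepatocyte markers summed to 878949 to 1525140 scaled reads in guinea pig liver and 1127100 to 1291540 in mouse liver. They summed to 1567730 to 2162270 in Damaraland liver and 1560130 to 2896650 in naked mole-rat liver. Alas2 was at 1556 to 1949 scaled reads in mouse liver and at most 192 in the other livers. The part of either cell type in the liver Pklr differences was not tested.

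Liver Pkm was called in 0 of 6 species pairs (4 had a limma adjusted p under 0.05), with values of 8.07 to 9.49. The difference of Damaraland mole-rat from guinea pig, 0.91, was past the size threshold with array weights (1.01) and without guinea pig liver replicate 1 (1.06). Pklr took 92.8% ± 1.17 (SD, n = 5) of pyruvate kinase reads in Damaraland liver, 91.6% ± 0.595 (n = 2) in mouse, 85.0% ± 2.47 (n = 4) in naked mole-rat and 75.9% ± 7.16 (n = 3) in guinea pig (exact permutation p = 5.55e-06, adjusted 1.11e-05). Pyruvate kinase reads as a whole averaged 7687 scaled reads in Damaraland liver, 4138 in mouse, 2829 in naked mole-rat and 1156 in guinea pig.

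**Figure D4:**
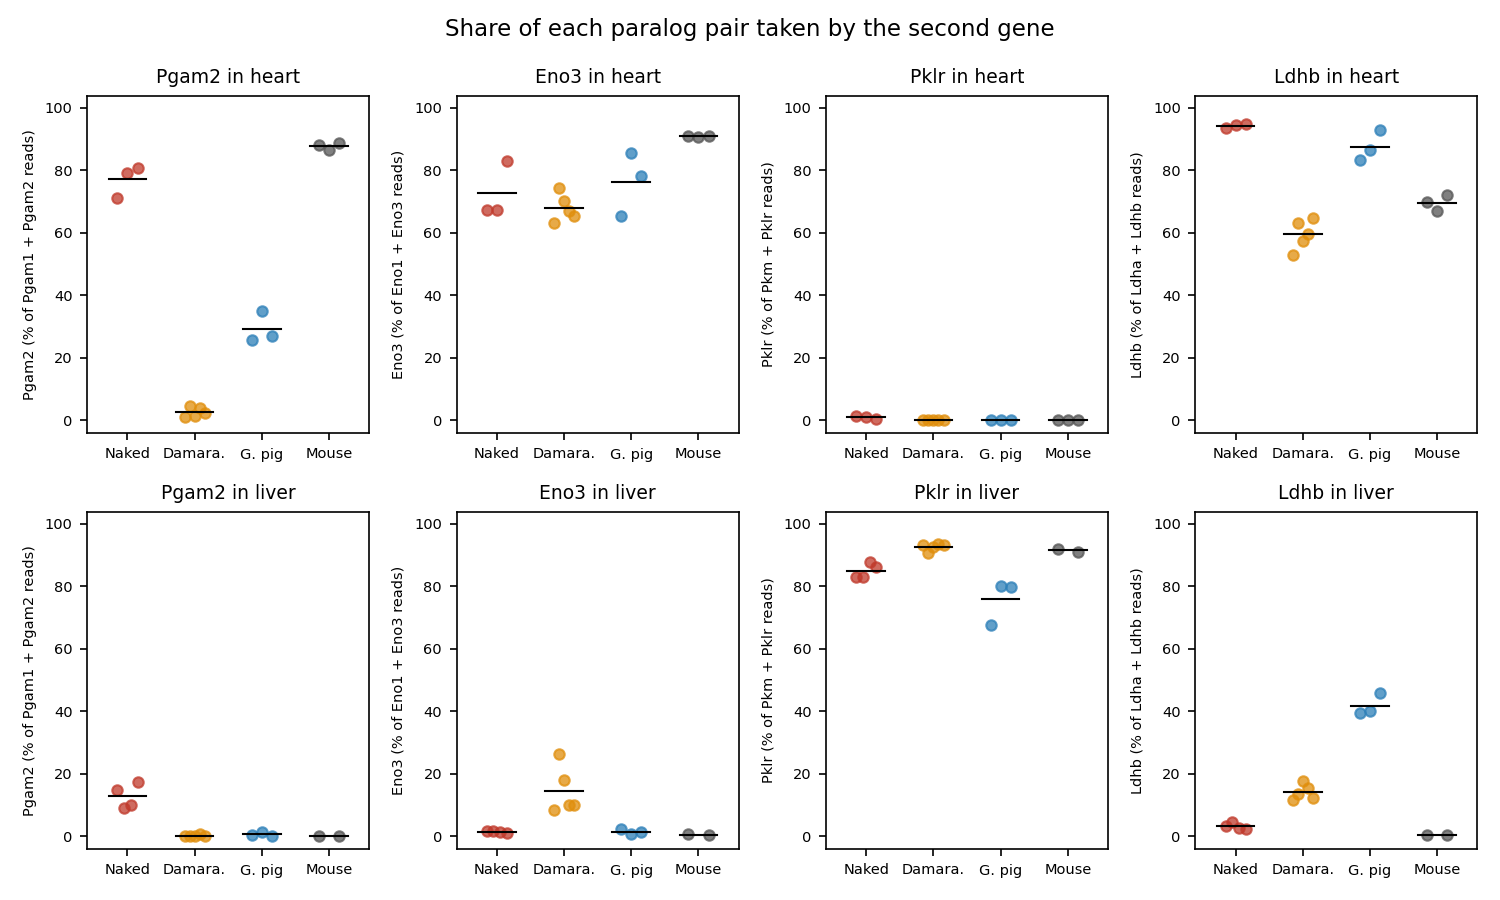
Share of a pair's reads (y axis, percent) that belonged to Pgam2, Eno3, Pklr or Ldhb in each heart (top) and liver (bottom) library, by species (x axis); points are libraries and lines are species means. Pgam2 in heart runs from 2.69% in Damaraland mole-rat to 87.9% in mouse, and Ldhb in liver from 0.46% in mouse to 41.8% in guinea pig.

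For lactate dehydrogenase the 2 mole-rats lay at opposite ends in heart, and the difference lay in Ldha. Heart Ldha values were 11.28, 11.33 and 11.04 in naked mole-rat, 14.79, 14.95, 15.10, 14.50 and 14.85 in Damaraland mole-rat, 12.55, 12.74 and 11.50 in guinea pig and 13.20, 13.31 and 13.18 in mouse. The 4 species did not overlap: naked mole-rat was lowest and Damaraland mole-rat highest, with both outgroups between them. How many of all genes kept the 4 species apart was not counted. Damaraland hearts held 29481 scaled reads of Ldha on average, 12.8 times naked mole-rat, 5.72 times guinea pig and 3.09 times mouse.

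Naked mole-rat Ldha was called lower than in each other species (-3.62, -1.04 and -2.01 against Damaraland mole-rat, guinea pig and mouse; limma adjusted p 1.13e-09, 0.00222 and 3.58e-06). Damaraland Ldha was called higher than in guinea pig (2.58, SE 0.23) and mouse (1.61, SE 0.23), limma adjusted p 6.02e-08 and 1.15e-05. With the mole-rats on opposite sides of the outgroups, the average contrast was 0.28 (SE 0.17, limma adjusted p = 0.158). The call of naked mole-rat against guinea pig ended without guinea pig heart replicate 1 (-0.90), guinea pig replicate 2 (-0.81) or naked mole-rat replicate 3 (-0.95), and with array weights (-0.98). The summed cardiomyocyte markers were also highest in Damaraland hearts, at 1088600 to 1526780 scaled reads. They were at 911907 to 982554 in mouse, and naked mole-rat (411280 to 848254) and guinea pig (672262 to 768885) overlapped. Most of the Damaraland sum was Myh6 (mean 958791 scaled reads), which was highest there, as was mean Tnnt2 (150398). The other markers ran differently. Mean Ryr2 was lowest in Damaraland hearts (52708), with mouse at 68408, guinea pig at 92095 and naked mole-rat at 130122. Mean Actc1 (208336) and Tnni3 (52967) were highest in mouse hearts, above the Damaraland means of 165284 and 25097. The part of these markers in the Ldha and Pkm differences was not tested.

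Ldhb, the heart-type subunit gene, was called in 0 of 6 heart pairs (3 had a limma adjusted p under 0.05). Its values were 15.12, 15.42 and 15.19 in naked mole-rat, 14.96, 15.73, 15.53, 15.06 and 15.73 in Damaraland mole-rat, 14.87, 15.41 and 15.17 in guinea pig and 14.40, 14.32 and 14.56 in mouse. Mouse lay below the other 3 species, which overlapped, and the difference of Damaraland mole-rat from mouse was 0.98 (SE 0.21, limma adjusted p = 0.000645), just short of the size threshold. It was past it without Damaraland heart replicate 1 (1.09) or 4 (1.06) or mouse heart replicate 3 (1.04), with quantile normalisation (1.49), with array weights (1.09) and with libraries centred on their median (1.04). Quantile normalisation also called naked mole-rat Ldhb higher than mouse (1.08). Ldhb made up 94.4% ± 0.636 (SD, n = 3) of lactate dehydrogenase reads in naked mole-rat heart, 87.7% ± 4.79 (n = 3) in guinea pig, 69.7% ± 2.65 (n = 3) in mouse and 59.6% ± 4.71 (n = 5) in Damaraland mole-rat. The within-library difference of the pair differed among species (exact permutation p = 3.57e-06, adjusted 9.51e-06). The reads of both genes together were most abundant in Damaraland heart, 73869 scaled reads beside 31489 to 41857 in the other species.

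In liver the split lay in Ldhb. Its values were 11.33, 10.78 and 11.22 in guinea pig, 9.60, 9.54, 9.78, 10.04 and 9.20 in Damaraland mole-rat, 7.76, 8.06, 7.82 and 7.78 in naked mole-rat and 6.61 and 6.25 in mouse. No species overlapped another, and all 6 species pairs were called. The share of all genes with either property was not counted. Guinea pig livers held 42.1 times the Ldhb scaled reads of mouse livers (difference 4.68, SE 0.23, limma adjusted p = 3.27e-11) and 11.3 times those of naked mole-rat livers (3.26, SE 0.19, limma adjusted p = 1.74e-10). Damaraland mole-rat was 1.78 above naked mole-rat. With guinea pig above and mouse below both mole-rats, the average contrast was -0.03 (SE 0.14, limma adjusted p = 0.873).

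Liver Ldha varied less, from 11.36 in guinea pig to 13.61 in mouse, and was called in 2 of 6 pairs, higher in mouse than in guinea pig (by 1.92) and than in Damaraland mole-rat (by 1.31), limma adjusted p 1.25e-05 and 0.000204. Naked mole-rat Ldha differed by -0.97 from mouse, and this was past the size threshold with quantile normalisation (-1.16), with array weights (-1.06) and in some fits with 1 library left out. Ldhb held 41.8% ± 3.48 (SD, n = 3) of the pair in guinea pig liver, 14.2% ± 2.50 (n = 5) in Damaraland mole-rat, 3.28% ± 0.889 (n = 4) in naked mole-rat and 0.460% ± 0.176 (n = 2) in mouse. The exact permutation p of 3.96e-07 (adjusted 3.17e-06) is the smallest that the numbers of livers allow. Endothelial markers, 4 of 4 in the table, summed to 5739 to 7276 scaled reads in guinea pig liver and 2161 to 2721 in mouse liver. They summed to 3124 to 4860 in naked mole-rat and 3193 to 3992 in Damaraland mole-rat, ranges that overlapped. The part of these markers in the Ldhb order was not tested.

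Read by species, the called differences against each of the other 3 species fell as follows. In heart, naked mole-rat was lower in Pkm and Ldha (4.14% of all genes met this rule), Damaraland mole-rat was higher in Pgam1 and Ldha (3.86%) and lower in Tpi1 and Pgam2 (2.9%), and mouse was higher in Eno3 (6.6%). In liver, naked mole-rat was higher in Pgam2 (5.83%) and lower in Pgam1 (4.45%), and Damaraland mole-rat was higher in Eno3 (5.51%) and lower in Tpi1 (3.3%). Guinea pig liver was higher in Ldhb (5.1%) and lower in Pklr (4.28%), and mouse liver was lower in Ldhb (5.83%). No gene had the same sole species at the same end in both tissues apart from Tpi1 in Damaraland mole-rat. The Damaraland Tpi1 entries rest on a listed value of 0 reads, whose origin was not tested.

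The shares differed between heart and liver in the same direction in every species, mouse being represented by 1 animal. In all 10 animals with both tissues, the shares of Pgam2, Eno3 and Ldhb were higher in heart than in liver, and the share of Pklr was lower. For Ldhb the heart and liver ranges were 93.6% to 94.6% and 2.74% to 3.40% in 2 naked mole-rats, 53.0% to 64.8% and 11.6% to 15.5% in 4 Damaraland mole-rats, and 83.5% to 92.9% and 39.7% to 45.8% in 3 guinea pigs. The 1 mouse with both tissues had an Ldhb share of 67.0% in heart and 0.335% in liver. The Pgam2 ranges of Damaraland mole-rats came closest, 1.06% to 4.59% in heart and 0.0951% to 0.678% in liver. Shares are ratios within a library, but the tables were normalised separately, so no test was made between tissues.

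The 10 genes together took 0.950% to 1.21% of all reads in Damaraland heart, 0.660% to 0.856% in guinea pig, 0.529% to 0.574% in mouse and 0.483% to 0.598% in naked mole-rat. Damaraland hearts were above all others in this share, and mouse and naked mole-rat overlapped. In liver the share was 0.258% to 0.305% in mouse, 0.159% to 0.215% in Damaraland mole-rat, 0.146% to 0.202% in naked mole-rat and 0.132% to 0.141% in guinea pig. The low mitochondrial share of Damaraland libraries enters these percentages directly.

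Of the upper glycolysis genes on the list, 1 was called higher and 1 lower on the average contrast in heart. There 23.4% of all genes were called. In liver 2 were called higher and 2 lower, beside 28.1% of all genes. In heart, among 10 of 12 upper glycolysis genes tested, those called included Hk2, the insulin-responsive hexokinase, which fell by 1.17 (limma adjusted p = 4.28e-06). In liver, among 11 tested, those called included Gpi1, glucose-6-phosphate isomerase, which was higher (1.30), and Hk3 (-2.03) and Aldoc (-1.84), which were lower (limma adjusted p 5.78e-07, 2.25e-09 and 8.06e-08). The median difference of these genes was -0.24 in heart and 0.04 in liver. Gapdh, which stands between Tpi1 and Pgk1 in the pathway, was not analysed here.

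Among further members of the same enzyme families, Eno2, the neuronal enolase, was higher in mole-rats in heart (2.13, SE 0.14) and liver (2.61, SE 0.14), limma adjusted p 9.95e-10 and 3.26e-11. Ldhd, the D-lactate dehydrogenase, was higher in liver (1.20, SE 0.12, limma adjusted p = 7.92e-08). These were 1 of 3 family genes tested in heart and 2 of 3 in liver, with medians of -0.12 and 1.20. Over all genes, 23.4% were called on this contrast in heart and 28.1% in liver. Of the 9 genes for the fate of pyruvate and lactate (medians -0.12 in heart and -0.30 in liver), heart Pck1 (1.50) was higher and heart Pdha1, a pyruvate dehydrogenase subunit, was lower (-1.52), and liver Pcx, pyruvate carboxylase, was lower (-1.72), limma adjusted p 5.33e-05, 3.84e-08 and 1.13e-07.

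Several of these enzymes have near-identical processed copies in rodent genomes, Pgam1, Eno1, Ldha and Pgk1 among them. How reads were shared among such copies, and how transcripts of the 4 species were joined under mouse identifiers, are not given in the sources used here, so a level that differs between species is uncertain to that extent. The limma p-values set species differences against the spread among animals within this one set of libraries. The permutation p-values set them against reassigned species labels of the same libraries.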

How the data were processed

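Ribosomal RNA-depleted total RNA from flash-frozen heart and liver was sequenced, per the labels' protocols. The submitters' processing notes name cutadapt, Salmon, DESeq2 and GRCm38, without roles. The authors' deposited values are on a log2-like scale, 1 table per tissue, named as variance-stabilised Salmon counts; inverting such a transform returned whole reads (tolerance 0.001 read) in every library. On this scale a doubling from 10 scaled reads moves the value by 0.282 in heart and 0.392 in liver, and from 1000 by 0.946 and 0.973, so differences of scarce genes are understated. The 26 columns of other series were not used.

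Genes with a mean under the value of 0 reads + 1 were left out (10667 genes kept in heart, 10887 in liver). Per tissue, limma 3.58.1 (R 4.3.3; empirical Bayes with trend, all 4 species in 1 fit) gave contrasts with Benjamini-Hochberg adjustment over all genes. Paralog pairs were compared by exact permutation of species labels over libraries (3363360 assignments in heart, 2522520 in liver). The script was tested on simulated data. No library was a repeat of another. The 10 genes, the lists and the rules (all members, called genes of the lists, the 3 genes most like the member with the largest contrast) were chosen with earlier results of these data known. Alternatives covered filters, scaling, weights, recovered reads with voom, and each library left out. Some genes of the lists are not reported here.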

Additional observations from a re-analysis of the deposited data

Results flagged for a closer look

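Among 42 sets of values, the 10 genes and 4 paralog differences in each of the 3 groups with 4 or 5 libraries, 3 held a library far from the rest of its group, where chance alone marks about 1 in 20; all 3 were of Damaraland liver replicate 5. Its Pgam1 value was 10.64, beside 11.09 to 11.18 in the other Damaraland livers. Its Eno1 value was 12.37, beside 12.78 to 12.90. Its difference of Pgam1 and Pgam2 was 5.31, beside 6.13 to 6.40. Leaving this library out changed no call of the 10 genes in the 6 liver species pairs.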

How the results depend on the processing

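Without the size threshold, the called members were 8 in heart and 7 in liver on the average contrast, 1 in heart in all 4 contrasts, and 42 in heart and 48 in liver over the species pairs. The all-4 count in heart was also 1 with libraries centred on their median and with voom on recovered reads. Leaving out each library in turn gave 2 to 4 in heart and 3 in liver on the average contrast, 0 to 1 in heart in all 4 contrasts, and 25 to 28 in heart and 27 to 30 in liver over the pairs; the cause of these changes was not tested. The near-zero Ldhb contrast in liver (-0.03) ranged from -0.12 to 0.063 when a library was left out and changed sign with voom (0.21) and without guinea pig liver replicate 1 (0.03), Damaraland liver replicate 5 (0.03) or mouse liver replicate 1 (0.063). The liver Pgam2 contrast (0.89) was called with voom (1.71, limma adjusted p = 0.00281) and without the size threshold (limma adjusted p = 6.5e-05). The members' average contrasts were compared under the alternatives that kept both the size threshold and a filter on low values. Of these, 410 kept direction and call, 4 reversed, 3 lost and 1 gained a call. The 8 pair tests stayed under 0.05 in all 136 pair-by-setting values. A lone mouse liver, when the other was left out, is assumed to vary like the other groups.

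Replicate numbers do not pair animals of different species. Each gene's deviation from its species mean was correlated between libraries of different species. For same-numbered libraries these correlations ran from -0.26 to 0.30 in heart, 2 of 18 above 0.1. In liver they ran from -0.23 to 0.15, 5 of 16 above 0.1. By the same measure, 6 of 14 hearts and 2 of 14 livers correlated best with their own number. With the replicate block the counts were 4, 0 and 26 in heart and 3, 0 and 29 in liver, as without it. It ended the liver Pgam1 call of naked mole-rat against guinea pig (-0.99) and gave a liver Ldha call against mouse (-1.05), and all 8 pair tests, permuted within replicate number, stayed under 0.05 (adjusted p 0.000868 to 0.0152).

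Scarce genes, such as Pklr in heart and Pgam2 in liver, rest on few reads, and the 2 mouse livers and the shallow naked mole-rat heart replicate 3 limit precision.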
